A study of Capra hircus with 6 samples.

Results

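The 7 subunits of respiratory complex I that are encoded in mitochondrial DNA, *ND1*, *ND2*, *ND3*, *ND4*, *ND4L*, *ND5* and *ND6*, were examined in RNA-seq libraries of goat intramuscular preadipocytes. They were chosen with earlier results of these data known, so the counts of them that met a criterion below are descriptive. Their rows were taken by gene name, and all 7 were found once among the 27271 genes of the deposited tables. The cells were primary preadipocytes isolated from the longissimus dorsi of 3-day-old Jianzhou goats by their early adherence. The NC groups (n = 3) received a negative control siRNA and the Si-LIPG groups (n = 3) an siRNA against *LIPG*, which encodes endothelial lipase, a lipase that acts on lipoproteins. Both groups were then cultured with 50 μmol/L oleic acid for 48 h, so that the induction of lipid storage was common to all 6 libraries. The study's methods give 3 biological replicates for its experiments without saying whether they were separate animals or separate wells, and the p values measure the spread between these libraries. Values of single libraries are listed below in the order of replicates 1, 2 and 3.

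Complex I takes electrons from NADH, passes them to ubiquinone and pumps protons across the inner mitochondrial membrane. Its ND subunits form the core of the membrane arm, which moves the protons, and all other subunits are encoded in the nucleus and imported. Mitochondrial DNA is transcribed from both strands into long RNAs that are cut into single transcripts. *ND6* is the one ND gene whose mRNA is copied from the light-strand promoter, and the other 6 belong to the long heavy-strand transcript. In RefSeq's goat assembly ARS1.2, *ND4L* and *ND4* overlap by 7 bases and *ND5* and *ND6* by 17 bases. The gene lengths implied by the deposited values equalled the RefSeq lengths, to the nearest base, for all 13 mitochondrial protein genes.

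Reads counted on genes numbered 524776 to 703680 per NC library and 864882 to 1051230 per Si-LIPG library. Of all reads these were 0.997% to 1.53% under NC and 1.80% to 2.88% under Si-LIPG, without overlap, while 91.6% to 93.7% per library were assigned to no gene. *LIPG* was counted 0, 2 and 0 times under NC and 0, 2 and 2 times under Si-LIPG. All are within the 3 counts that a count of 0 allows, so silencing of *LIPG* was not detectable in the reads counted on genes. The counts of *LIPG* therefore give no check of the group labels, and every direction below is Si-LIPG against NC as the sample titles name them. The paper reports more genes upregulated than downregulated after silencing. With these titles, DESeq2 gave the reverse, 629 higher and 1064 lower at a fold change over 1.5 and an unadjusted p under 0.05. By the unadjusted p alone 1695 genes passed with DESeq2. The number of lower genes equals the paper's number of upregulated genes, and the number by p alone equals its total. Whether the paper's contrast or the titles were turned round was not tested. The directions below may therefore be the opposite of the paper's. The library protocol selects poly(A) RNA and keeps its strand, but the strand setting of the counting is not given in the sources used here. Whether a read counted on an ND gene came from its own mRNA or from the opposite strand therefore cannot be told apart. The same limit holds for every other gene below, the nuclear genes and the cell type markers among them. NC 1 had the lowest share of reads on genes and a TMM factor of 0.601, against 0.927 to 1.37 in the other libraries, and it held the highest CPM of *ND2*, *ND3*, *ND4*, *ND4L*, *ND5* and *ND6* (CPM is used here for counts scaled to library size with TMM factors).

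By FPKM, in which the count is divided by the length of the gene and the total over genes, *ND6* was the highest of the 7 genes in every library. Its FPKM was 175649, 112341 and 132534 under NC and 102098, 60481 and 57553 under Si-LIPG. It ranked 2 to 4 among the 27271 genes of each library. How much of this level came from reads of the opposite strand was not tested. *ND4*, an antiporter-like subunit of the proton channel, came next in every library, at 6260 ± 780.1 (SD, n = 3) under NC and 6209 ± 252 (SD, n = 3) under Si-LIPG. The FPKM of *ND5*, the antiporter-like subunit at the far end of the membrane arm, was 3900.2 ± 861 (SD, n = 3) and 3994 ± 203 (SD, n = 3), below *ND4* in all 6 libraries. Its range overlapped that of *ND3* in the NC groups but not in the Si-LIPG groups. The lower 4 genes changed places between the groups. In the NC groups the order of their mean FPKM was *ND3* (2308 ± 1138, SD, n = 3), *ND4L* (739 ± 232, SD, n = 3), *ND2* (587 ± 49.5, SD, n = 3) and *ND1* (483 ± 47.0, SD, n = 3). The ranges of *ND4L* and *ND2* overlapped, as did those of *ND2* and *ND1*, while *ND3* was above these 3 genes in each NC library. In the Si-LIPG groups the order was *ND1* (1644 ± 688, SD, n = 3), *ND3* (944 ± 393, SD, n = 3), *ND2* (869 ± 178, SD, n = 3) and *ND4L* (318 ± 24.2, SD, n = 3). *ND1*, *ND3* and *ND2* overlapped there, and *ND4L* was the lowest of the 7 in each of these libraries.

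**Figure D1:**
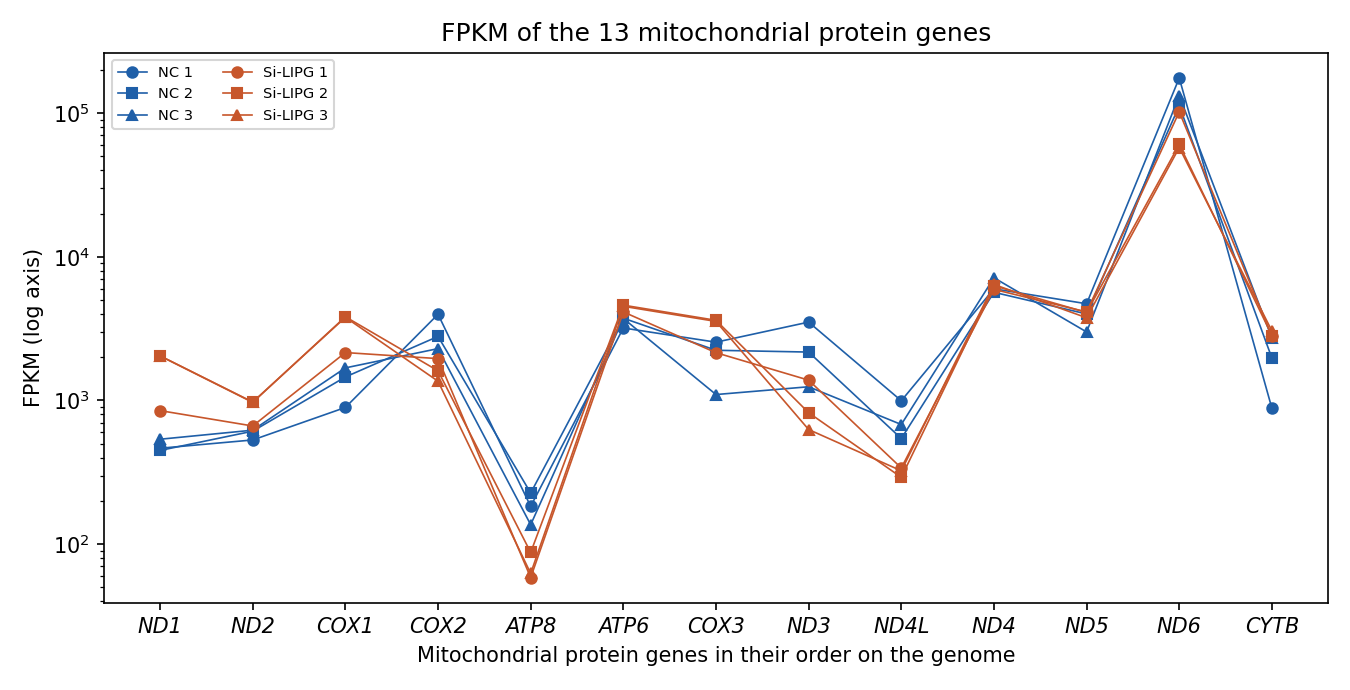
FPKM (log axis) of the 13 mitochondrial protein genes in their order on the mitochondrial genome, 1 line per library (blue NC, orange Si-LIPG, symbols for the replicate number). *ND6* lies between 57553 and 175649 in all 6 libraries, far above its neighbours, and the lines of the groups cross between *ND1* and *ND3*.

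The 7 genes together held 11.2% of the reads counted on genes in NC 1 (95% exact Clopper-Pearson interval 11.1% to 11.3%). In NC 2 the share was 7.64% (7.57% to 7.70%) and in NC 3 it was 8.71% (8.64% to 8.77%). After silencing the shares were 7.17% (7.11% to 7.22%), 5.14% (5.09% to 5.18%) and 4.94% (4.89% to 4.98%). These intervals cover counting error only. Every Si-LIPG library was below every NC library, with means of 5.75% ± 1.23 (SD, n = 3) and 9.18% ± 1.83 (SD, n = 3), and the two-sided exact permutation test gave p = 0.1, which is the lowest value 3 against 3 can give. Most of these reads were on *ND6*, which made up 80.3% ± 2.55 (SD, n = 3) of the reads on the 7 genes under NC and 66.3% ± 7.72 (SD, n = 3) under Si-LIPG. The 6 heavy-strand genes alone held 1.78% ± 0.130 (SD, n = 3) and 1.87% ± 0.0866 (SD, n = 3) of the counted reads, and the groups overlapped (two-sided exact permutation test, p = 0.3). Over all reads in the files, the 7 genes had 1079.6 to 1329.5 RPM (reads scaled to all reads) in the NC libraries and 1290.6 to 1423 in the Si-LIPG libraries, so that the direction of the difference was the opposite on that scale (two-sided exact permutation test, p = 0.2).

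To ask on which of the 7 genes the counts differed after *LIPG* silencing, edgeR's quasi-likelihood test was run with TMM factors. It covered the 6574 genes left by its filter on low counts, among them all 7 ND genes. The criterion was that of the study, a fold change over 1.5 together with an unadjusted p under 0.05, and Benjamini-Hochberg p values adjusted for all tested genes stand beside it. At the criterion, *ND1* was higher and *ND3*, *ND4L* and *ND6* were lower in the Si-LIPG groups, which is 4 of the 7 genes against 20.7% of all tested genes (7.83% higher and 12.9% lower). The adjusted p was under 0.05 for *ND3* and *ND4L*, both lower, against 6.51% of all tested genes (0.974% higher and 5.54% lower). With DESeq2, the tool of the study, it was under 0.05 for *ND1* (0.0134), *ND3* (0.00216), *ND4L* (0.00104) and *ND6* (0.00245), and for 595 of all genes. The median log2 fold change was -0.62 over the 7 genes and 0.16 over all tested genes, and 0.88 and 1.58 when all reads in the files set the scale. CPM did not overlap between the groups for *ND1* (higher), *ND3*, *ND4*, *ND4L* and *ND6* (lower), which is 5 of the 7 genes against 28.7% of all tested genes (15.2% higher and 13.4% lower).

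*ND3*, a small subunit with a loop at the junction of the membrane arm and the peripheral arm, was counted 637, 452 and 303 times under NC and 414, 279 and 228 times under Si-LIPG. Its CPM was 2065, 814 and 478 under NC and 467, 227 and 167 under Si-LIPG. The lowest NC library and the highest Si-LIPG library were close, and NC 1 was far above the rest. *ND3* fell by 1.96 on the log2 scale (log2 fold change -1.96, standard error (SE) 0.51, adjusted p = 0.03996 from edgeR). Without NC 1 the log2 fold change was -1.19 (adjusted p = 0.132 from edgeR). *ND3* stayed past the criterion whichever library was removed, but its adjusted p from edgeR rose to 0.0622 without NC 2, 0.243 without Si-LIPG 2 and 0.253 without Si-LIPG 3.

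*ND4L*, the smallest of the 7 subunits, was counted 155, 97 and 142 times under NC and 87, 85 and 101 times under Si-LIPG. Its CPM was 503, 175 and 224 under NC and 98.2, 69.3 and 73.8 under Si-LIPG. All 3 Si-LIPG libraries lay below the lowest NC library. The log2 fold change was -1.89 (SE 0.40, adjusted p = 0.0395 from edgeR), and in the order of p *ND4L* ranked 27 of the 6574 tested genes. It too stayed past the criterion in every such removal, with an adjusted p from edgeR of 0.0771 without NC 1, 0.0594 without NC 2, 0.240 without Si-LIPG 2 and 0.253 without Si-LIPG 3. In these 4 fits 0 of all tested genes had an adjusted p under 0.05 from edgeR (871 to 1616 had an unadjusted one), against 428 with all 6 libraries. Its mRNA is joined to that of *ND4*, the gene it overlaps, and reads assigned to more than 1 gene are set apart by HTSeq, the counting tool named in the submitters' processing notes. Over all genes these were 4682 to 5335 reads per library, many times the counts of *ND4L*, and how many of them came from this overlap was not tested.

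*ND6*, a subunit of the membrane arm, was counted 48669, 35706 and 49242 times under NC and 46624, 31374 and 31945 times under Si-LIPG. Its CPM was 157803, 64315 and 77603 under NC and 52607, 25563 and 23334 under Si-LIPG. The groups did not overlap, and NC 1 and Si-LIPG 1 were each the highest of their group. *ND6* fell by 1.56 on the log2 scale (SE 0.51, adjusted p = 0.0805 from edgeR). *ND6* did not meet the criterion when Si-LIPG 2 or Si-LIPG 3 was left out, where the log2 fold changes were -1.34 and -1.29 (adjusted p = 0.453 and 0.411 from edgeR), and without Si-LIPG 1 it was -2.05 (adjusted p = 0.0278 from edgeR). As RPM over all reads in the files, *ND6* was 925, 839 and 1069 under NC and 971, 839.7 and 876 under Si-LIPG. On that scale the groups overlapped, with means of 944 ± 116 (SD, n = 3) and 896 ± 67.6 (SD, n = 3), and edgeR gave a log2 fold change of -0.076 (adjusted p = 0.548).

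*ND1*, the subunit that forms the ubiquinone channel together with the peripheral arm, was counted 233, 258 and 361 times under NC and 702, 1915 and 2053 times under Si-LIPG. Its CPM was 755, 465 and 569 under NC and 792, 1560 and 1500 under Si-LIPG. Si-LIPG 1 was just above NC 1, and Si-LIPG 2 and 3 were far above both. *ND1* rose by 1.11 on the log2 scale (SE 0.35, adjusted p = 0.0738 from edgeR). It stayed past the criterion whichever library was left out, with log2 fold changes of 0.96 to 1.33. *ND2*, another antiporter-like subunit, lies next to *ND1* among the protein genes of the mitochondrial genome. It was counted 290, 383 and 455 times under NC and 598, 992 and 1067 times under Si-LIPG. The CPM of *ND2* was 782 ± 137 (SD, n = 3) under NC and 754 ± 70.3 (SD, n = 3) under Si-LIPG. These values overlapped (log2 fold change -0.051, SE 0.30, adjusted p = 0.951 from edgeR), and without NC 1 the log2 fold change was 0.080.

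*ND4* was counted 4326, 4693 and 6925 times under NC and 7065, 8508 and 9294 times under Si-LIPG. Its CPM was 14026, 8453 and 10914 under NC and 7972, 6932 and 6789 under Si-LIPG, so that counts were higher and CPM lower in each Si-LIPG library than in any NC library. The log2 fold change was -0.62 (SE 0.36, adjusted p = 0.362 from edgeR), short of the criterion. *ND5* was counted 4499, 4382 and 3838 times under NC and 6499, 7325 and 7199 times under Si-LIPG. Its CPM was 9510 ± 4493 (SD, n = 3) and 6187 ± 1054 (SD, n = 3), with overlap between the groups. The log2 fold change of *ND5* was also -0.62 (SE 0.40, adjusted p = 0.421 from edgeR).

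**Figure D2:**
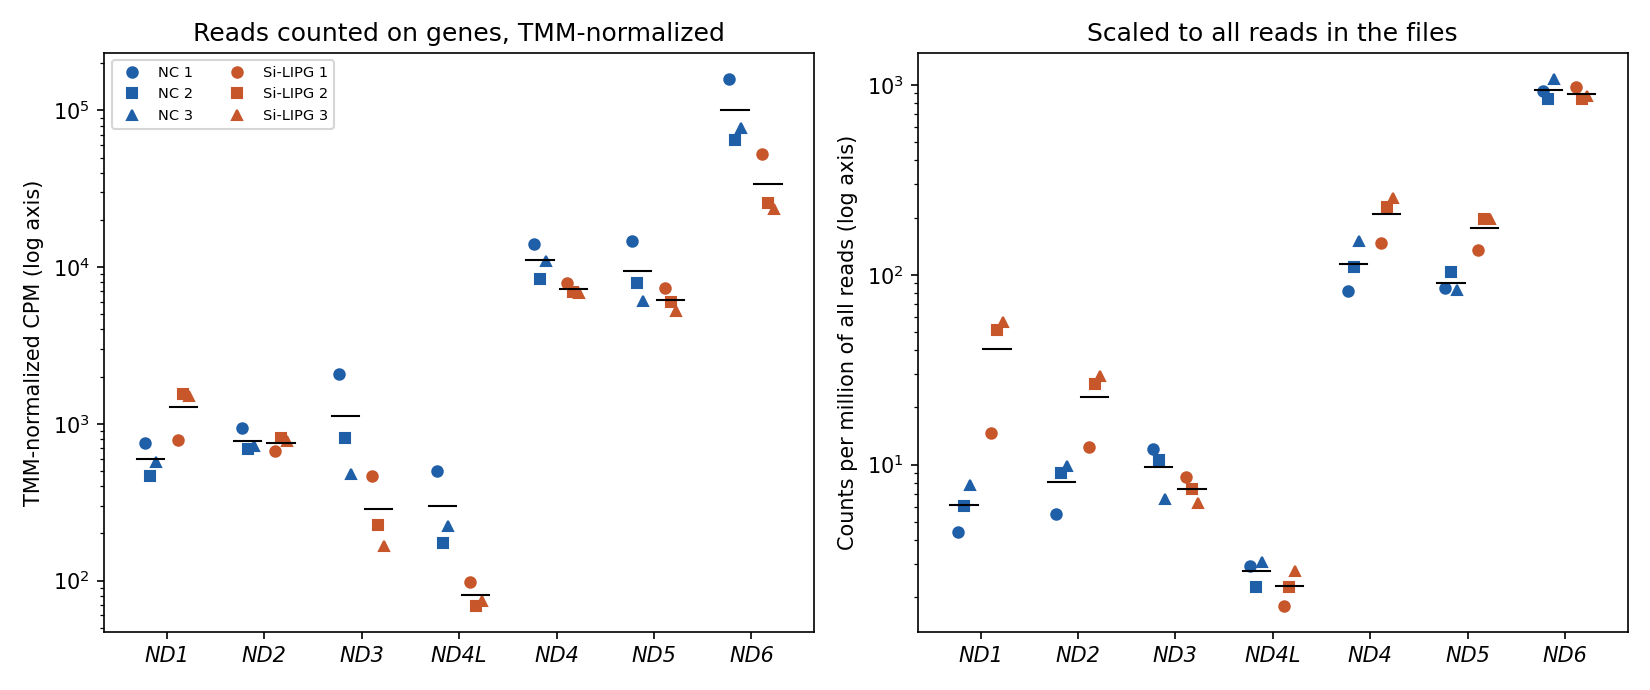
Values of the 7 ND genes in each library (blue NC, orange Si-LIPG, symbols for the replicate number, black lines for group means, log axes), left as CPM and right as RPM over all reads in the files. *ND6* separates the groups on the left and overlaps on the right, where it is 839 to 1069 in the NC libraries and 839.7 to 971 in the Si-LIPG libraries.

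The scaling of the libraries set the direction of several of these values. Over all tested genes the median log2 fold change was 0.16 with TMM factors, 0.74 with the reads on genes and no further factor, and 1.58 with all reads in the files as library size. With the reads on genes, *ND1* was higher (1.79) and *ND3* (-1.27), *ND4L* (-1.19) and *ND6* (-0.91) were lower at the criterion, where 24.2% of all tested genes were higher and 6.01% were lower. With all reads in the files *ND1*, *ND2*, *ND4* and *ND5* were higher at the criterion, with log2 fold changes of 2.74, 1.49, 0.88 and 0.96, and no ND gene was lower, where 46.1% of all tested genes were higher and 0.0304% were lower. *ND3* and *ND4L* had log2 fold changes of -0.39 and -0.28 on that scale (adjusted p = 0.345 and 0.588 from edgeR). Relative to the median of all tested genes, each ND gene kept its side under the 7 scalings that were run. Of these, the scaling to the heavy-strand mitochondrial protein genes was chosen after seeing the data. A change of scaling shifts the log2 fold changes of all genes by similar amounts, so these distances could hardly change and give no separate support. *ND1* was 0.94 to 1.15 above this median on the log2 scale. The differences from the median were -2.13 to -1.94 for *ND3*, -2.06 to -1.86 for *ND4L* and -1.73 to -1.60 for *ND6*. They were -0.79 to -0.71 for *ND4*, -0.79 to -0.62 for *ND5* and -0.22 to -0.099 for *ND2*. The share of reads on genes did not overlap between the groups either, and its part in these results was not tested.

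**Figure D3:**
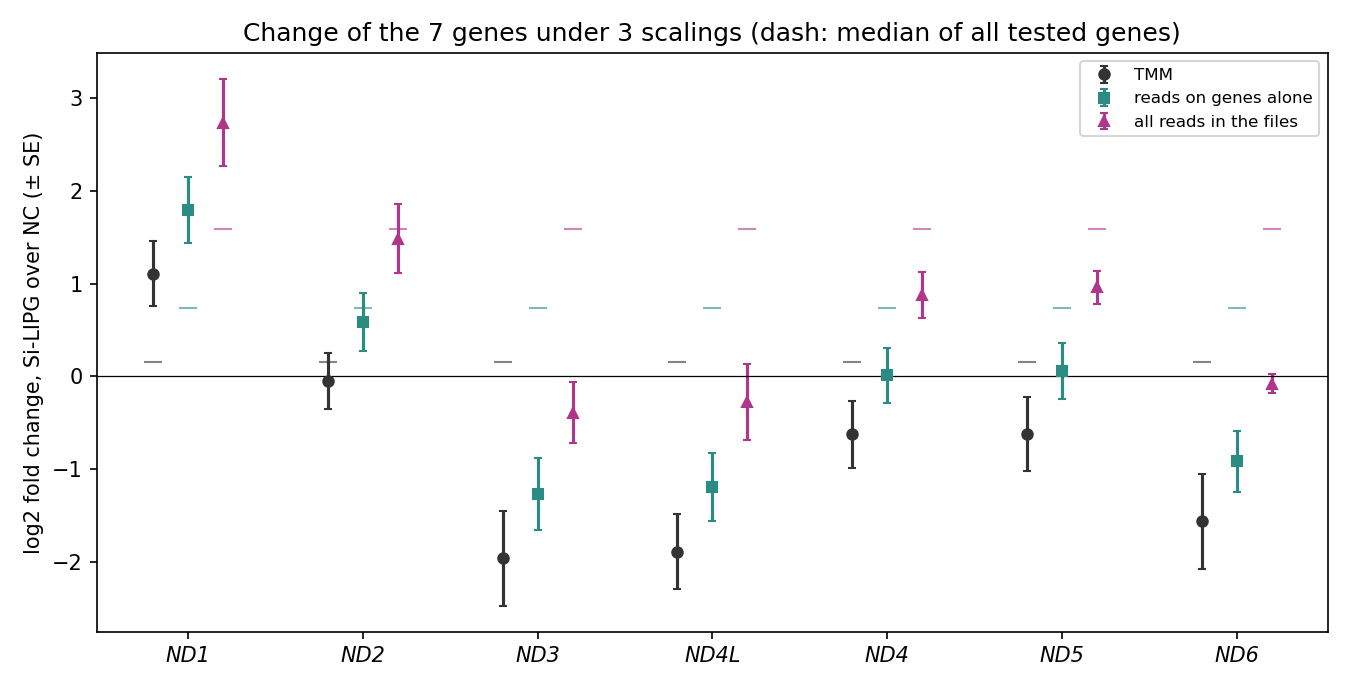
Log2 fold change of each ND gene (Si-LIPG over NC, error bars SEs) under TMM, reads on genes alone and all reads in the files, with a dash for the median of all tested genes under the same scaling (0.16, 0.74 and 1.58). *ND1* lies above the dash and *ND3*, *ND4L*, *ND4*, *ND5* and *ND6* lie below it under each of the 3 scalings, with *ND2* close beneath it.

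Ratios between ND genes within a library do not depend on how libraries are scaled. Per kb, the counts of *ND6* were 65.1, 50.2 and 60.2 times the mean of the 6 heavy-strand ND genes under NC and 46.1, 25.0 and 24.4 times that mean under Si-LIPG. Every Si-LIPG ratio was below every NC ratio, a difference of -0.93 on the log2 scale (exact permutation test, two-sided, p = 0.1, again the lowest possible). Against the median of the 6 genes in place of their mean, the ratios were 78.0, 80.8 and 137.8 under NC and 91.5, 40.2 and 38.2 under Si-LIPG, the groups overlapped, and the difference was -0.88 (exact permutation test, two-sided, p = 0.3). All 21 pairs of ND genes were compared in the same way, and no adjusted p from the exact permutation test was below 0.150. As 3 against 3 cannot give a p below 0.1, no adjusted p under 0.05 was possible, and these p values decide nothing. The groups did not overlap for 14 of the 21 pairs, which share genes and are not independent. How often pairs of other genes overlap was not tested. For the neighbours *ND1* and *ND2*, the mean log2 ratio per kb was -0.28 ± 0.14 (SD, n = 3) under NC and 0.83 ± 0.41 (SD, n = 3) under Si-LIPG, without overlap. For *ND4* over *ND4L*, which share a transcript, it was 3.12 ± 0.46 (SD, n = 3) and 4.29 ± 0.15 (SD, n = 3), also without overlap. For *ND5* over *ND6*, which lie on opposite strands, it was -5.17 ± 0.33 (SD, n = 3) and -4.15 ± 0.42 (SD, n = 3), again without overlap. The ratio of *ND4* to *ND5* overlapped, with 0.70 ± 0.49 (SD, n = 3) and 0.64 ± 0.13 (SD, n = 3), as did that of *ND3* to *ND4L*, with 1.56 ± 0.61 (SD, n = 3) and 1.49 ± 0.54 (SD, n = 3).

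The other 6 mitochondrial protein genes encode subunits of complexes III and IV and of ATP synthase. At the criterion 2 of them, *COX2* and *ATP8*, were lower, 0 were higher and 4 did not pass. Of all tested genes 12.9% were lower and 7.83% were higher. The log2 fold changes of the 6 genes ran from -1.98 to 0.70 around a median of -0.16. The lowest was that of *ATP8*, which was counted only 10 to 27 times per library. Most of the mitochondrial genes that were lower at the criterion are short. *ND4* (1378 bases) and *ND5* (1821 bases) also had negative log2 fold changes, both -0.62, short of the criterion. In the files *ATP8*, *ND4L*, *ND3*, *ND6* and *COX2* have lengths of 198, 297, 346, 528 and 684 bases, and of the other 8 genes *ATP6* (681 bases) was the only one shorter than *COX2*. Spearman's rho between length and log2 fold change was 0.703 across the 13 genes, which share the same libraries and transcripts and are not independent. Across all 6574 tested genes it was 0.121. The 679 tested genes between 198 and 684 bases had a median log2 fold change of -0.074, against 0.16 for all, and 17.7% of them were lower at the criterion. This range of lengths was itself taken from the mitochondrial genes that were lower at the criterion. The part of gene length in the values of *ND3*, *ND4L* and *ND6* was not tested.

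**Figure D4:**
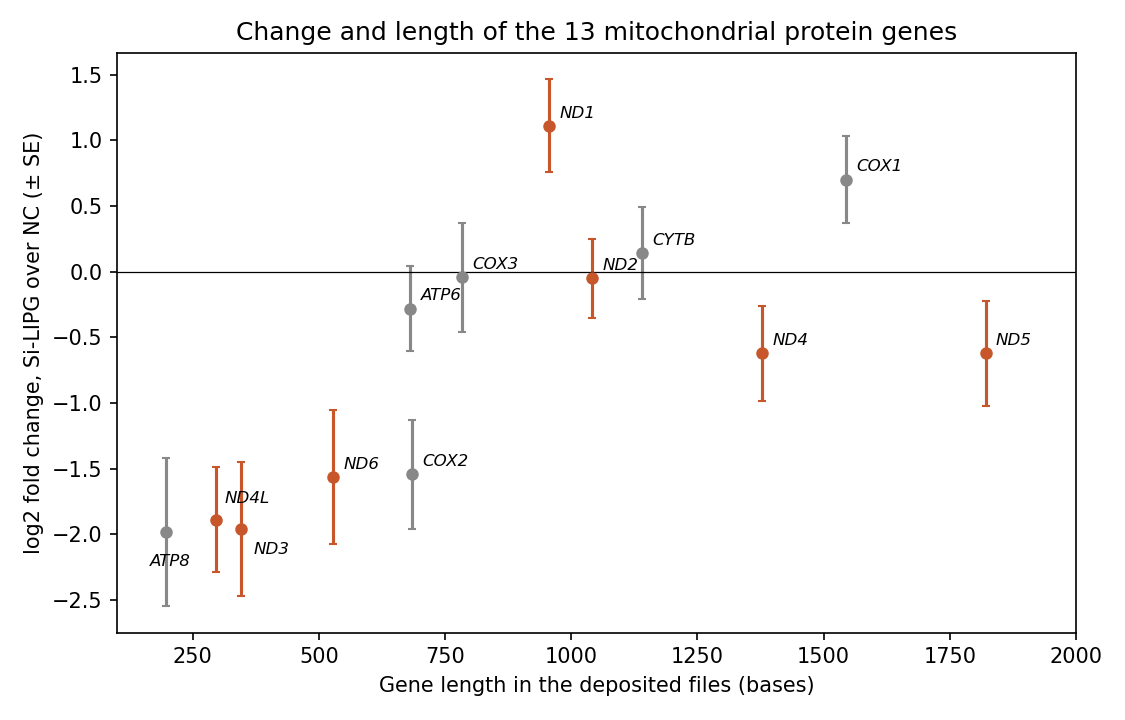
Log2 fold change (Si-LIPG over NC after TMM normalization, error bars SEs) against gene length in bases for the 13 mitochondrial protein genes, with the ND genes in orange and the others in grey. *ND3*, *ND4L* and *ND6* lie at the lower left, near *ATP8* and *COX2*, and *ND1* is the highest at 956 bases.

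Of the 37 nuclear genes listed for structural subunits of complex I, 25 were found by name and 16 had enough counts to be tested. At the criterion 1 was lower, 0 were higher and 15 did not pass, and 0 had an adjusted p under 0.05 (1 had an unadjusted p under 0.05 with edgeR). Their median log2 fold change was -0.10, against 0.16 for all tested genes. *NDUFS3*, a core subunit of the peripheral arm, was the lower one, counted 58, 46 and 43 times under NC and 68, 56 and 47 times under Si-LIPG (log2 fold change -1.09, SE 0.45, adjusted p = 0.177 from edgeR). The groups overlapped for *NDUFS3*, and scaled to all reads its log2 fold change was 0.43. *NDUFB9*, a subunit of the membrane arm, was counted 0 to 46 times per library (log2 fold change 1.71, SE 0.94, adjusted p = 0.331 from edgeR). Of 19 assembly factors, 4 were tested and 0 met the criterion or an unadjusted p under 0.05 with edgeR, with log2 fold changes from -0.80 to -0.31. The direction of the calls among structural subunits and assembly factors together turned with the scaling. By TMM there were 0 higher and 1 lower (7.83% and 12.9% of all tested genes). With the reads on genes alone there were 2 higher and 0 lower (24.2% and 6.01%), and with all reads 6 and 0 (46.1% and 0.0304%). The balance over all tested genes turned in the same way. DESeq2 gave 1 higher and 1 lower. There were 1 higher and 0 lower without NC 1, 3 higher and 1 lower without NC 2, 2 higher and 1 lower without NC 3, 1 higher and 2 lower without Si-LIPG 1, and 0 when Si-LIPG 2 or Si-LIPG 3 was left out (0 at an unadjusted p under 0.05 with edgeR). The SE of the nuclear subunits was 0.31 to 1.23, against 0.30 to 0.51 for the ND genes.

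**Figure D5:**
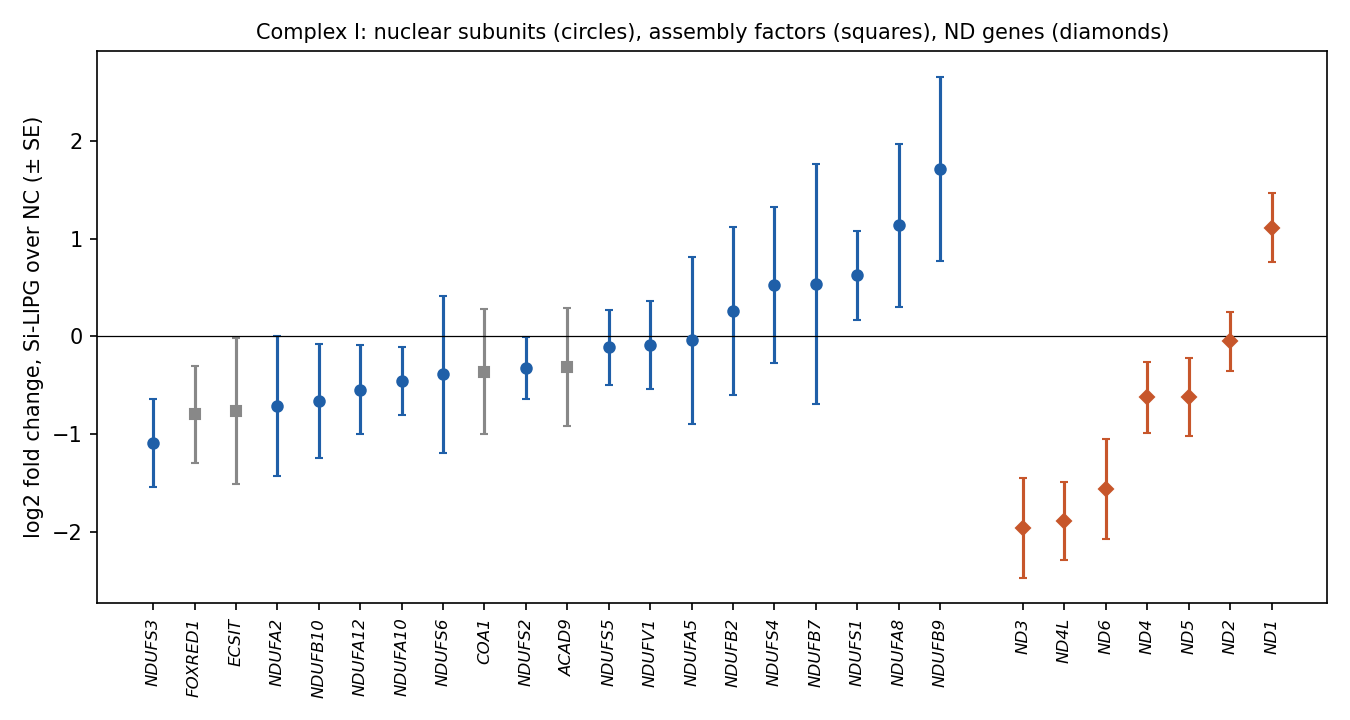
Log2 fold change (Si-LIPG over NC after TMM normalization, error bars SEs) of the tested nuclear subunits of complex I (blue circles), its assembly factors (grey squares) and the 7 ND genes (orange diamonds). The nuclear genes run from -1.09 (*NDUFS3*) to 1.71 (*NDUFB9*), and the ND genes from -1.96 (*ND3*) to 1.11 (*ND1*).

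Among 28 nuclear genes for mitochondrial transcription and RNA handling, 12 were tested. At the criterion 2 were lower (against 12.9% of all tested genes), 0 were higher and 10 did not pass, with a median log2 fold change of 0.32. *POLG*, the catalytic subunit of the mitochondrial DNA polymerase, averaged 743 ± 401 CPM (SD, n = 3) under NC and 263 ± 86.7 CPM (SD, n = 3) under Si-LIPG (log2 fold change -1.495, SE 0.396, adjusted p = 0.0411 from edgeR). *FASTKD1*, a member of a family of mitochondrial RNA-binding proteins, averaged 330.3 ± 153 CPM (SD, n = 3) and 121 ± 34.9 CPM (SD, n = 3) (log2 fold change -1.44, SE 0.37, adjusted p = 0.03996 from edgeR). Neither gene overlapped between the groups, but scaled to all reads their log2 fold changes were 0.057 and 0.083, on the other side of 0. Neither kept an adjusted p under 0.05 without NC 1, NC 2, Si-LIPG 2 or Si-LIPG 3, where no tested gene did with edgeR. *POLRMT*, the mitochondrial RNA polymerase, was counted 1 to 44 times per library (log2 fold change 0.41, SE 0.71, adjusted p = 0.808 from edgeR).

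The ND genes also differed in how they moved over the 6 libraries. In log2 CPM, *ND6* followed *ND4L*, *ND4* and *ND3* (Pearson's r of 0.966, 0.957 and 0.956 over 6 libraries) and ran against *ND1* (r of -0.732). *ND1* and *ND2* had an r of 0.380. These are descriptions over libraries that include both groups. Among the other 6561 tested genes, those most like *ND6* were *PGAM2*, *FABP3*, *ACSBG1*, *GINM1* and *GNB2* (r of 0.9985 to 0.9995 over 6 libraries). Those most like the sum of the 6 heavy-strand ND genes were *HNRNPH3*, *CCDC92*, *UBAP2*, *DCLRE1C* and *MAP2K1* (r of 0.989 to 0.995 over 6 libraries). *ND4* and *ND5* held on average 48.7% and 39.7% of the counts in that sum under NC and 45.7% and 38.9% under Si-LIPG. The sum therefore does not stand for *ND1*, *ND2*, *ND3* or *ND4L*. *FABP3* and *CCDC92* had mean counts of only 23.7 and 33.5. As the highest of 6561 values, these r are descriptive.

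The labelled cell type was checked against marker genes. Of 11 preadipocyte and mesenchymal markers, 10 were found by name and all 10 had counts. Scaled to the reads on genes without TMM factors, their summed CPM was 11748 to 24517 in the NC libraries and 34289 to 35390 in the Si-LIPG libraries, without overlap. On that scale the median log2 fold change of all tested genes was 0.74. With TMM factors it was 0.16 for all tested genes and 0.19 for these 10 genes. At the criterion 2 of the 10 were higher (*LUM* and *DCN*) and 1 was lower (*ENG*), against 7.83% and 12.9% of all tested genes. The 8 adipocyte markers had 5 to 38 counts per library in all, with *LPL* and *CD36* at 0 in every library. The 9 myogenic markers, 7 of them found, summed to 276 to 387 CPM in the NC libraries and 475 to 531 in the Si-LIPG libraries. With TMM factors the 3 of them that were tested had a median log2 fold change of 0.0088. The 6 immune markers summed to 26.5 to 43.2 CPM over all libraries, with *PTPRC* and *CD3E* at 0. Of the 5 endothelial markers, *CDH5*, *KDR* and *TEK* were at 0 and the others had at most 7 counts per library. The part of these differences in the values of the ND genes was not tested, and fewer cells of a type and less RNA per cell cannot be told apart in these libraries.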

How the data were processed

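RNA was sequenced from 3 NC and 3 Si-LIPG samples, grouped by their titles. The authors deposited raw counts per gene, 1 file per library with 27271 genes and 5 rows for reads on no gene, and a table of FPKM values of the same genes. The submitters' processing notes name fastp, HISAT2, SAMtools and HTSeq. Versions, genome build and strand setting are not given in the sources used here. Genes held 0.997% to 2.88% of the reads, and the 5 rows with the rest entered no test.

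The counts were fitted with edgeR 4.0.16 in R 4.3.3 (filterByExpr, TMM, quasi-likelihood test, no covariates). DESeq2 1.42.0, the tool of the study, and limma 3.58.1 on log2(FPKM + 1) and log2(FPKM + 0.1) were alternatives. Log2 CPM used a prior count of 2. Exact permutation tests used scipy 1.17.1. The procedure was tested on simulated counts. Gene lengths were derived from FPKM and counts. Replicates differed by more than sampling noise (chi-square over its degrees of freedom 4.21 to 12.5). The ND genes and the lists were chosen with earlier results of these data known. All 7 ND genes were named, and of the nuclear lists those with an adjusted p under 0.05 and otherwise at most the 4 with the lowest p, plus the 5 genes most alike. *POLRMT*, *ATP6*, *LUM*, *DCN* and *ENG* were named after their values were seen.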

Additional observations from a re-analysis of the deposited data

How the results depend on the processing

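The count of ND genes at the criterion was 3 to 5 under all 18 alternatives, and *ND1* kept its direction and stayed past the criterion in each of them. Scaling to all reads in the files changed most. There *ND3* (-0.39), *ND4L* (-0.28) and *ND6* (-0.076) no longer met the criterion, *ND2* (1.49), *ND4* (0.88) and *ND5* (0.96) changed sign, the 7 genes together had 179.6 more RPM in the Si-LIPG groups, 6 nuclear complex I genes (6 higher, 0 lower) and 3032 of all genes met the criterion. The split of all genes at the criterion moved from 515 higher and 846 lower to 3030 and 2 with all reads and to 1588 and 395 with the reads on genes alone, where *ND2* (0.59), *ND4* (0.011) and *ND5* (0.057) changed sign, and 2 nuclear complex I genes (2 higher, 0 lower) met the criterion. With limma on FPKM, *ND2* (0.546 and 0.547) and *ND5* (0.0575 and 0.0576) changed sign, 3 and 2 nuclear complex I genes met the criterion (all higher), and 0 of the 7 ND genes had an adjusted p under 0.05 (4 had an unadjusted one), as did 0 of all 6574 tested genes (1912 and 1671 had an unadjusted one). *ND2* also changed sign with upper-quartile factors (0.0034), without a filter (0.053), when 10 counts were required in every sample (0.24) and scaled to the heavy-strand mitochondrial genes (0.29). *ND4* met the criterion with DESeq2 (-0.62), which called 629 of all genes higher and 1064 lower and gave 4 ND genes an adjusted p under 0.05 (*ND1*, *ND3*, *ND4L* and *ND6*). The share of reads on the 6 heavy-strand ND genes alone was 0.0906 percentage points higher in the Si-LIPG groups. Nuclear complex I genes at the criterion numbered 2 with DESeq2 (1 higher, 1 lower), 3 without a filter (2 higher, 1 lower) and 0 when 10 counts were required in every sample, and all genes numbered 2044 without a filter.

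Leaving out 1 library gave log2 fold changes of 0.96 to 1.33 for *ND1*, -0.13 to 0.080 for *ND2*, -2.51 to -1.19 for *ND3*, -0.78 to -0.44 for *ND4*, -2.15 to -1.33 for *ND4L*, -0.85 to -0.19 for *ND5* and -2.05 to -1.08 for *ND6*. It gave 871 to 1692 genes at the criterion and 0 to 4 nuclear complex I genes. Without NC replicate 1, NC replicate 2, Si-LIPG replicate 2 or Si-LIPG replicate 3, 0 of the 7 ND genes had an adjusted p under 0.05 with edgeR, and 4, 4, 3 and 3 had an unadjusted one. In the same fits 0 of all tested genes had an adjusted p under 0.05, and 1307, 1616, 888 and 871 had an unadjusted one. The log2 ratio of *ND6* to the heavy-strand genes stayed between -1.23 and -0.78, and the difference in the share of the 7 genes between -4.21 and -2.42 percentage points.

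The replicate numbers were not shown to pair the libraries (correlation of deviations 0.21, 0.064 and 0.11 for numbers 1, 2 and 3). NC 1 and NC 3 were most like the Si-LIPG library of the same number, while NC 2 was most like Si-LIPG 3. With a replicate block, *ND4* met the criterion (-0.596), 5 ND genes and 4 nuclear complex I genes (2 higher, 2 lower) met it, 6 of the 7 ND genes had an adjusted p under 0.05 from edgeR against 2 without the block (925 against 428 of all tested genes), and 1550 of all genes met the criterion. The cause of these changes was not tested.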
